A study of Mus musculus with 28 samples.

Results

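Colony-stimulating factors and their receptors were followed in the bulk RNAseq data through 9 genes, chosen by symbol from the 55341 gene names of the count matrices. These were the ligand genes Csf1, Il34, Flt3l, Csf2 and Csf3 and the receptor subunit genes Csf2ra, Csf2rb, Csf2rb2 and Csf3r. All 9 were found. The samples were 28 whole subcutaneous tumors of AB1-HA, a mouse mesothelioma line, grown in the flank of BALB/c.AusBP mice (female and 8 to 10 weeks old by the methods of the study), with 1 tumor per mouse, and every group carried the same line. Treatment was PBS in 4 mice, ICB (anti-CTLA-4 plus anti-PD-L1, 100 µg of each) in 5, 5-FU (75 mg/kg) in 5, Cisplatin (6 mg/kg) in 4, 5-FU+ICB in 5 and Cisplatin+ICB in 5. Mice on ICB had 2 further doses of anti-PD-L1, and tumors were collected on day 7. The question of the study was how a chemotherapy changes the tumor milieu when it is given with ICB, and here it was asked of these 9 genes.

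Libraries held 23541733 to 33950805 estimated counts. Levels are given as CPM, counts scaled to library size after TMM normalization of all 28 libraries together, and 3 counts, taken as the floor, were worth 0.0884 to 0.127 CPM (a limit that covers counting error only). Among 6 markers of mesothelial cells, Msln made up nearly all of the RNA in most tumors. It ran from 34.4 to 654 CPM in 27 tumors, but 5-FU+ICB tumor 5 had 0.499 CPM, together with the highest summed B cell (588.6 CPM) and skeletal muscle (3916 CPM) markers. The keratin genes of the same list went the other way in that tumor, with 33.4 CPM of Krt8, 27.1 of Krt18 and 48.8 of Krt19, so that the 6 markers still summed to 110.5 CPM. Wt1, Upk3b and Krt18 were at or near 0 in PBS tumors. At the other end, Cisplatin+ICB tumor 1 had 654 CPM of Msln. Ptprc, the gene of the pan-leukocyte protein CD45, was lowest among 5-FU+ICB tumors in tumor 2 (105 CPM). Where leaving out 1 of these 3 tumors changed the call of a member, that is said beside the result.

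GM-CSF (Csf2), G-CSF (Csf3) and M-CSF (Csf1) are the growth factors after which the family is named, and they drive the production and survival of granulocytes, monocytes and macrophages. IL-34 (Il34) is a second ligand of the M-CSF receptor, and FLT3 ligand (Flt3l) supports dendritic cell development. GM-CSF signals through a specific alpha chain (Csf2ra) paired with the common beta chain (Csf2rb), which IL-3 and IL-5 receptors share. Mice carry a further beta chain gene, Csf2rb2, whose product serves IL-3. G-CSF acts through a receptor of its own, Csf3r, found mainly on neutrophils and also on monocytes. In tumors these factors are known for recruiting and shaping myeloid cells.

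The sequences around the starts of receptor genes are given first, as a description. Promoter windows (250 bases before to 50 after the start, RefSeq, GRCm38.p6) were held for Csf3r, Csf2ra and Csf2rb2, but not for Csf2rb. Capitals mark GAGGAAG or its reverse complement CTTCCTC, the core of the site bound by PU.1, a transcription factor of myeloid cells. This motif was picked after the sequences had been read.

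Csf3r, chr4:126024409-126024708, plus strand: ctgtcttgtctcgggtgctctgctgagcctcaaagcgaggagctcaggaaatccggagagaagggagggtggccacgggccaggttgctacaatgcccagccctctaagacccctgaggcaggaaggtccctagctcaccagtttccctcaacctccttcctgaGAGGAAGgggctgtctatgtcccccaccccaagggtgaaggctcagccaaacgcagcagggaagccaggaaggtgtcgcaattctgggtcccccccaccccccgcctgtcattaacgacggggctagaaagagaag
Csf2ra, chr19:61228369-61228668, minus strand: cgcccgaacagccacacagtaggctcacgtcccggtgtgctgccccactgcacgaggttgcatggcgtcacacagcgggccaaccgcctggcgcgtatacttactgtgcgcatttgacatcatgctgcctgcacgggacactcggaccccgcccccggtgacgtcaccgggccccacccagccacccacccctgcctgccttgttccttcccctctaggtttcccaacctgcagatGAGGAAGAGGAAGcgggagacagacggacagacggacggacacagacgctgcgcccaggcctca
Csf2rb2, chr15:78305672-78305971, minus strand: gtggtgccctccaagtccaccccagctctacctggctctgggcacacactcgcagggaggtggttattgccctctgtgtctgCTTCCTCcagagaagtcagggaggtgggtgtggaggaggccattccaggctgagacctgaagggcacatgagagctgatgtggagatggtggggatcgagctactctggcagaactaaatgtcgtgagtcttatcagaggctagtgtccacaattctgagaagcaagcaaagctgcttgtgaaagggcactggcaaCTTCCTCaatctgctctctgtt

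Both strands were searched, and the core was found in 3 of 3 receptor windows, at -86 in Csf3r, at -168 and 29 in Csf2rb2, and at -14 and -8 in Csf2ra, where the matches share 1 base. None of the windows of Csf1, Flt3l and Csf2 held it, so that 3 of 6 windows did. Of all 32851 promoter windows of that length, 13.6% held it. Because this core was picked after the receptor sequences had been read, its count there cannot be judged against that share. Other motifs were TTGCNNAA (C/EBP core), found in 1 of 6 windows (Csf2, 10.8% of all windows), and TTCNNNGAA (STAT core), found in 1 of 6 (Csf2rb2, 8.3% of all). Matches are a description of these letters and were not tested for binding.

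Per kilobase of the longest coding transcript, Csf1 was the most abundant ligand RNA. In PBS tumors it stood at 61.0 ± 27.1 CPM per kb (SD, n = 4), followed by Il34 at 22.6 ± 4.66 and Flt3l at 7.20 ± 1.95. Csf2 (0.430 ± 0.197) and Csf3 (0.0937 ± 0.0686) were rare. The receptor subunits in the same tumors stood at 10.1 ± 2.67 for Csf2ra, 9.25 ± 1.75 for Csf2rb, 4.05 ± 1.52 for Csf2rb2 and 2.09 ± 0.239 for Csf3r. After ICB the order of the receptors changed, with Csf2rb at 57.1 ± 20.3, Csf2ra at 42.9 ± 13.2 and both Csf2rb2 (± 10.1) and Csf3r (± 8.96) at 27.1 CPM per kb (SD, n = 5).

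A gene was called when its Benjamini-Hochberg adjusted p over all genes tested was under 0.05 and its log2 fold change exceeded 0.5 in size (edgeR quasi-likelihood test). Against PBS, ICB tumors had 7 of 9 members called, 6 higher and 1 lower, where 37.8% of all tested genes were called. With 5-FU the number was 4 of 9, all higher, against 23% of all genes. With 5-FU+ICB it was 6 of 9, all higher, against 40.7%, or 5 of 8 without Csf3, which passed the filter on low counts only through groups where it is high. With Cisplatin+ICB it was 2 of the 8 members tested, both higher, against 6.10%, and with Cisplatin 0 of 8, against 0%. The median log2 fold change of the tested members was 2.13, 1.15, 2.32, 1.60 and 0.23 in that order, while that of all tested genes lay between -0.04 and 0.03. These comparisons share the PBS tumors and are not independent of one another. The 4 receptor genes made up most of the calls.

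**Figure D1:**
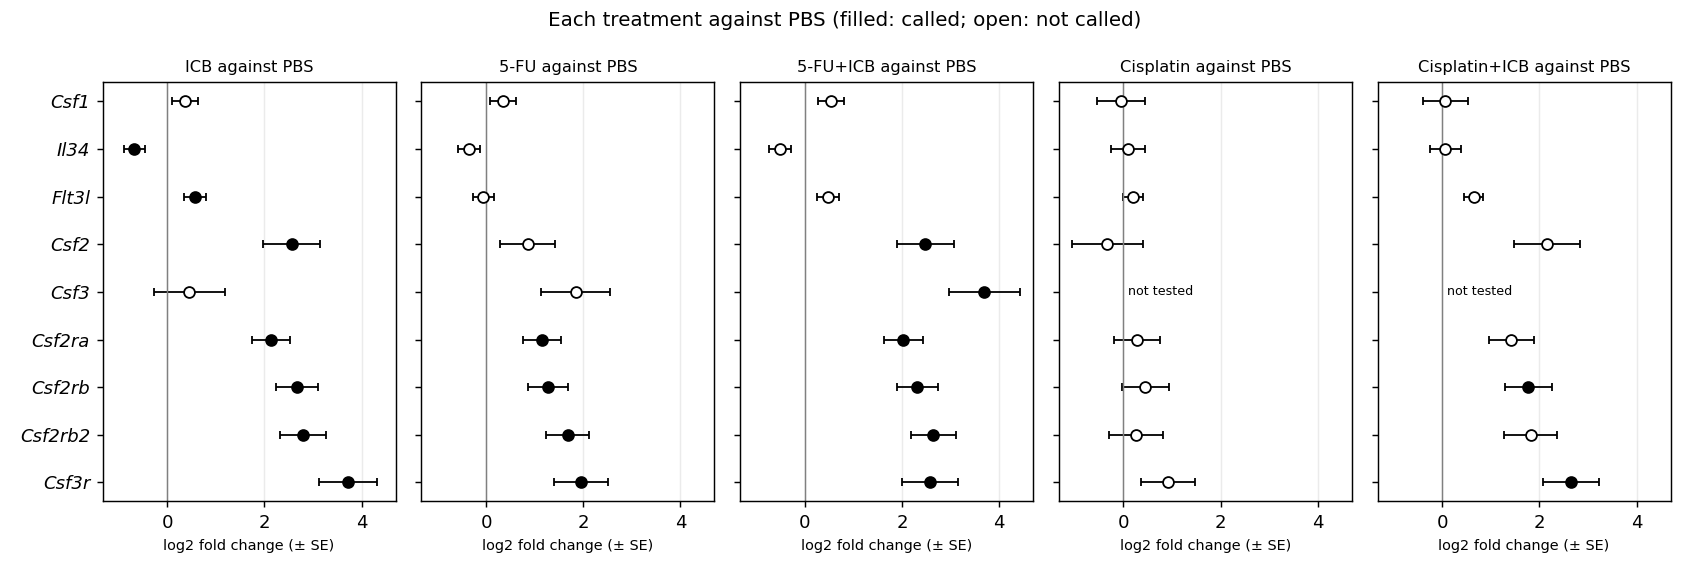
Log2 fold change (x axis, with its standard error as bars) of the 9 members in each treatment against PBS, with filled points for called genes and open points for the others. The receptor genes lie to the right of 0 in all 5 panels, and Il34 is the only filled point to the left.

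Csf3r, the G-CSF receptor gene (chr4:126024550-126044440, GRCm38, plus strand), had the largest rise of the members with ICB. PBS tumors had 7.09, 7.72, 6.18 and 8.07 CPM, and ICB tumors had 75.5, 124, 116, 49.1 and 107 CPM. Every ICB tumor was therefore above every PBS tumor, and the log2 fold change was 3.72 (SE 0.61, adjusted p = 0.000445). 5-FU tumors had 16.9, 18.9, 58.1, 12.5 and 33.2 CPM, again with no overlap with PBS (log2 fold change 1.95, SE 0.56, adjusted p = 0.0191). The 5-FU+ICB tumors were spread more widely, with 64.7, 5.67, 66.8, 46.0 and 29.3 CPM, and tumor 2 lay below all PBS tumors (log2 fold change 2.57, SE 0.57, adjusted p = 0.00258). Without tumor 2 the log2 fold change was 2.86, and without tumor 5 it was 2.68, both called. Cisplatin tumors, at 24.5, 7.58, 10.0 and 12.3 CPM, overlapped PBS (log2 fold change 0.91, SE 0.56, not called). Cisplatin+ICB tumors had 5.51, 62.1, 21.2, 63.8 and 72.4 CPM, with tumor 1 below the PBS tumors and the other 4 above them (log2 fold change 2.65, SE 0.57, adjusted p = 0.0182). That call was lost without PBS tumor 1, 3 or 4 (adjusted p up to 0.0797 over the fits with 1 tumor left out), and with all tumors kept it was lost with the replicate number as a block (adjusted p = 0.0882) and with the 2 groups alone (adjusted p = 0.0978). Without Cisplatin+ICB tumor 1 the log2 fold change was 3.00 (adjusted p = 0.000527). By group mean the order was ICB, Cisplatin+ICB, 5-FU+ICB, 5-FU, Cisplatin and PBS, and the values of each neighbouring pair in this order overlapped. In whole tumors, more receptor RNA per cell and more cells that carry the receptor cannot be told apart.

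**Figure D2:**
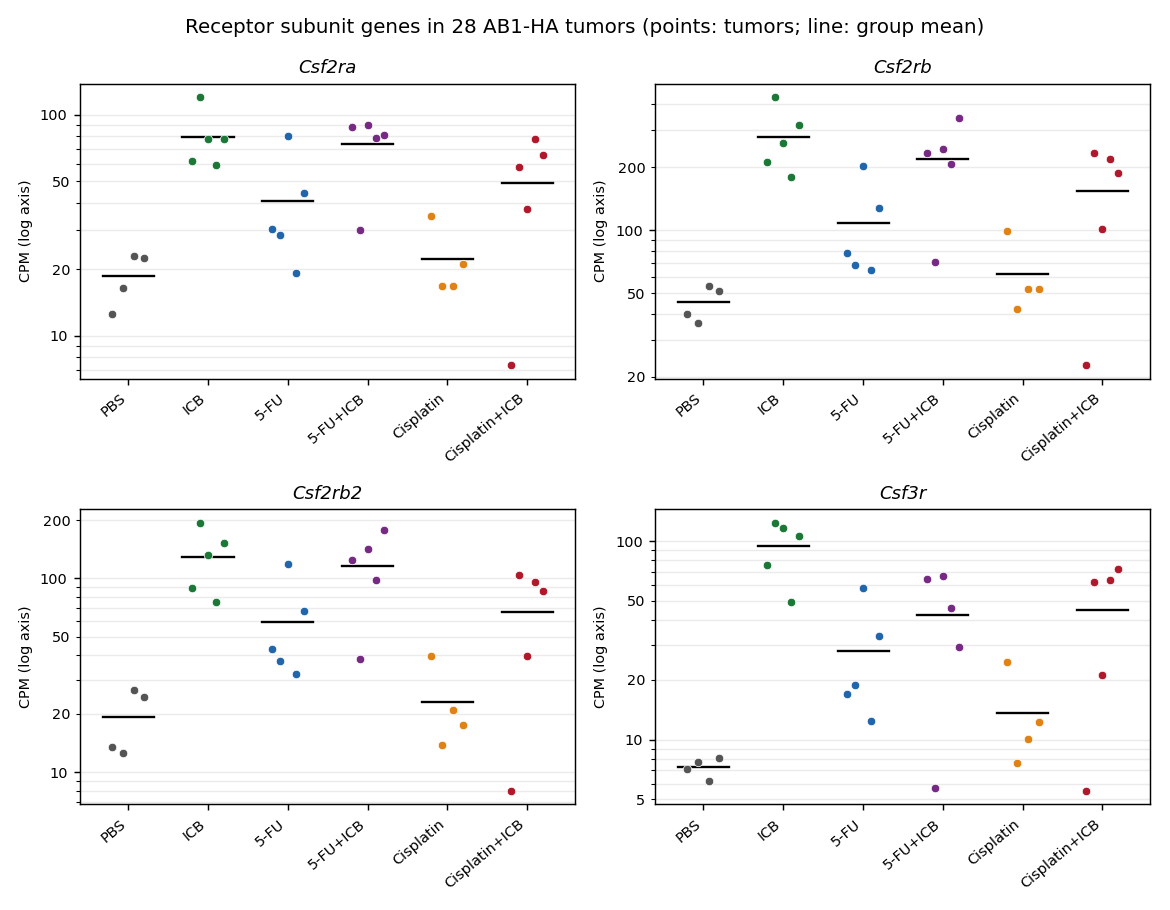
CPM (log axis) of the 4 receptor subunit genes in each of the 28 tumors by treatment group, with points for tumors and a line for the group mean. ICB tumors lie above all PBS tumors in each panel, and 5-FU+ICB tumor 2 and Cisplatin+ICB tumor 1 are the lowest of their groups.

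Csf2ra, the alpha chain of the GM-CSF receptor (chr19:61223957-61228429, minus strand), followed with smaller changes. PBS tumors had 12.6, 16.5, 22.9 and 22.4 CPM and ICB tumors 61.6, 120.3, 77.4, 59.5 and 77.6 CPM. These did not overlap (log2 fold change 2.13, SE 0.40, adjusted p = 0.000909). 5-FU+ICB tumors had 88.2, 30.0, 90.2, 78.3 and 81.1 CPM, which was also above PBS throughout (log2 fold change 2.03, SE 0.40, adjusted p = 0.00134). 5-FU tumors, at 30.4, 28.6, 80.2, 19.3 and 44.3 CPM, reached into the PBS range with tumor 4 (log2 fold change 1.15, SE 0.38, adjusted p = 0.0359). In Cisplatin+ICB, the values of 7.37, 57.8, 37.7, 78.1 and 65.6 CPM gave a log2 fold change of 1.42 (adjusted p = 0.0735, not called, but 0.0169 and called by DESeq2). Leaving out Cisplatin+ICB tumor 1, the only one of the 5 below the highest PBS tumor, gave 1.78 with an adjusted p of 0.00122.

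The common beta chain Csf2rb (chr15:78325752-78353847, plus strand) and Csf2rb2 (chr15:78282507-78305721, minus strand) are neighbouring paralogs. Of the distinct stretches of 31 bases in the transcripts, the k-mer length that kallisto uses, 18.8% of those of Csf2rb and 28.6% of those of Csf2rb2 occurred in both genes. Reads from shared stretches are divided between them by estimation, so the split is uncertain and the sum is the firmer value. Summed CPM was 48.9 to 80.5 in PBS, 254.1 to 625 in ICB, 96.4 to 320.5 in 5-FU, 109 to 519.7 in 5-FU+ICB, 56.0 to 139 in Cisplatin and 30.7 to 339 in Cisplatin+ICB tumors. All ICB, 5-FU and 5-FU+ICB tumors thus exceeded all PBS tumors in the sum. Taken singly, Csf2rb had log2 fold changes against PBS of 2.67 (ICB, SE 0.43, adjusted p = 0.000439), 1.28 (5-FU, SE 0.41, adjusted p = 0.0302), 2.32 (5-FU+ICB, SE 0.43, adjusted p = 0.00101) and 1.77 (Cisplatin+ICB, SE 0.49, adjusted p = 0.0404). The last of these calls held in 8 of 18 fits with 1 tumor left out. With every tumor kept it was lost without a filter (adjusted p = 0.0547), with the replicate block (adjusted p = 0.159) and with the 2 groups alone (adjusted p = 0.127). It was also lost without any 1 of the PBS tumors, ICB tumor 1 or 5, Cisplatin tumor 3 or Cisplatin+ICB tumor 2, 4 or 5, and the log2 fold change was 2.13 without Cisplatin+ICB tumor 1. Csf2rb2 had 2.80 (ICB, SE 0.47, adjusted p = 0.000522), 1.68 (5-FU, SE 0.45, adjusted p = 0.0148), 2.65 (5-FU+ICB, SE 0.47, adjusted p = 0.000823) and 1.82 (Cisplatin+ICB, SE 0.55, adjusted p = 0.0585, not called, but 0.00714 and called by DESeq2). Without Cisplatin+ICB tumor 1 the last value was 2.199 (adjusted p = 0.00163), and without Cisplatin+ICB tumor 3 the gene was called too. As estimated, Csf2rb2 counts were 0.545 ± 0.0322 (SD, n = 5) of Csf2rb counts in 5-FU and 0.532 ± 0.0400 in 5-FU+ICB tumors. That ratio was 0.412 ± 0.0823 (SD, n = 4) in PBS, 0.457 ± 0.0373 in ICB, 0.365 ± 0.0403 (SD, n = 4) in Cisplatin and 0.418 ± 0.0440 in Cisplatin+ICB tumors. Every 5-FU tumor was above every PBS and every Cisplatin tumor in this ratio, which was not tested.

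The receptor calls in 5-FU tumors moved with single tumors. Without PBS tumor 1 or PBS tumor 2, 0 of the 4 remained called against PBS, without 5-FU tumor 3 it was 1, and without 5-FU tumor 5 it was 2. In those fits the share of all genes called also moved, from 23% to 10.5%, 7.87%, 16.5% and 14.1%. In 5-FU tumor 3 all 4 receptor genes were the highest of the group. Leaving it out lowered the log2 fold change of Csf3r to 1.49 and that of Csf2ra to 0.74. When all 6 groups were fitted together, 0 of 9 members and 4.45% of all genes were called for 5-FU against PBS, at nearly the same fold changes of members (1.94 for Csf3r, adjusted p = 0.0667). With the replicate number as a block, 1 of 9 members and 18.6% of all genes were called. The ICB and 5-FU+ICB calls of all 4 receptors held in 19 of 19 fits with 1 tumor left out.

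Ptprc and the markers of macrophages and T cells moved with the receptors. Ptprc was at 74.9 to 105 CPM in PBS, 245 to 442.5 in ICB, 97.6 to 331 in 5-FU, 105 to 721 in 5-FU+ICB, 77.3 to 154.5 in Cisplatin and 118 to 361 in Cisplatin+ICB tumors. Its log2 fold change was 2.00 with ICB, 1.09 with 5-FU (adjusted p = 0.0654, not called), 2.15 with 5-FU+ICB and 1.41 with Cisplatin+ICB. Summed over 7 macrophage markers, CPM ranged from 1282 to 2199 in PBS, 2965 to 8358 in ICB, 1957 to 7333 in 5-FU and 1632 to 7776 in 5-FU+ICB tumors, and 7 of 7, 4 of 7 and 6 of 7 of the markers were called higher in ICB, 5-FU and 5-FU+ICB. The range was 774.6 to 1965 in Cisplatin and 1784 to 3464 in Cisplatin+ICB tumors, with 0 of 7 and 2 of 7 called higher. Neutrophil markers were scarce. The 6 genes of that list summed to 3.14 to 10.9 CPM in PBS, 11.3 to 44.4 in ICB, 2.84 to 8.17 in 5-FU, 3.04 to 10.3 in 5-FU+ICB, 7.07 to 17.1 in Cisplatin and 15.3 to 66.2 in Cisplatin+ICB tumors, and Ly6g had 0 counts in all PBS tumors. Of the 5 that could be tested, 2 were called higher with ICB, 0 with 5-FU, 1 with 5-FU+ICB and 4 with Cisplatin+ICB. The other lists stand against the same shares of all genes called, 37.8%, 23%, 40.7% and 6.1% with ICB, 5-FU, 5-FU+ICB and Cisplatin+ICB. Those shares count both directions. In the same order, 3396, 1788 and 3930 of 17916 genes and 837 of 17819 were called higher. Of 5 T cell markers, 5, 4, 5 and 4 were called higher with ICB, 5-FU, 5-FU+ICB and Cisplatin+ICB, at median log2 fold changes of 3.51, 2.43, 4.31 and 2.72, the sum running from 19.6 to 26.3 CPM in PBS and from 135 to 508 CPM in ICB tumors. In the same order, 2, 0, 2 and 2 of 4 monocyte markers, 2, 0, 4 and 1 of 6 dendritic cell markers, 1, 2, 2 and 0 of 3 NK cell markers, 1, 1, 3 and 0 of 3 endothelial markers and 0, 3, 2 and 0 of 4 fibroblast markers were called higher. None of 3 B cell markers was called higher with ICB, 5-FU or Cisplatin+ICB, and 2 were with 5-FU+ICB. Their sum had a median of 13.4 CPM in PBS and 5.84 CPM in ICB tumors, while their median log2 fold change with ICB was 1.82. In 5-FU+ICB tumors the sum was 16.89, 11.99, 8.022, 19.17 and 588.6 CPM, with tumor 5 far above the rest. That tumor also had the highest dendritic cell (245.5 CPM) and endothelial (587.7 CPM) sums. Calls of these markers were not checked without it. The sum of the 6 mesothelial markers, nearly all of it Msln in most tumors, went the other way. It was 273 to 361 CPM in PBS, 54.5 to 218 in ICB, 46.8 to 178 in 5-FU, 37.8 to 169 in 5-FU+ICB, 216 to 309 in Cisplatin and 132.5 to 664 in Cisplatin+ICB tumors, so that the ICB, 5-FU and 5-FU+ICB ranges lay under that of PBS. Of the 4 mesothelial markers tested, Msln alone was called lower, and with 5-FU+ICB only, while Wt1, at under 3 CPM, was called higher with ICB, 5-FU, 5-FU+ICB and Cisplatin+ICB, and Krt19 with 5-FU+ICB. Of 4 skeletal muscle markers 0 were called against PBS with any treatment. Their sum had a median of 117.8 CPM in PBS, 37.55 in ICB, 1022 in 5-FU and 652.4 in 5-FU+ICB tumors. It was 123.5 in Cisplatin and 256.9 in Cisplatin+ICB tumors, with wide ranges in some groups (0.7305 to 2908 in ICB). The part of these cell types and of the tumor cells in the receptor results was not tested.

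Levels were therefore also expressed relative to Ptprc, as log2 CPM minus that of Ptprc. On this scale Csf2ra differed from PBS by 0.12 with ICB, 0.04 with 5-FU and 0.03 with 5-FU+ICB, within the spread of PBS tumors (SD 0.53). Csf2rb differed by 0.61, 0.18 and 0.23 (SD of PBS 0.45). Csf2rb2 differed by 0.77, 0.59 and 0.61, with overlap. With Cisplatin+ICB the differences from PBS were -0.19 for Csf2ra, 0.12 for Csf2rb and 0.15 for Csf2rb2, and with Cisplatin -0.01, 0.14 and -0.03, all with overlap. The Cisplatin+ICB values rest in part on tumor 1, which lay below every PBS tumor in these genes (-3.993, -2.376 and -3.874). The others of its group were at -2.458 to -1.875, -0.9393 to -0.2483 and -2.063 to -1.416. Csf3r differed from PBS without overlap by 1.65 for ICB (two-sided exact permutation p = 0.0159), 0.76 for 5-FU (exact permutation p = 0.0159) and 0.52 for Cisplatin (exact permutation p = 0.0286, the smallest that 4 against 4 tumors allow), while Cisplatin+ICB overlapped PBS (0.87, exact permutation p = 0.0794). That overlap came from Cisplatin+ICB tumor 1 (-4.407). The others of its group (-2.702 to -2.165) lay above every PBS tumor (-3.561 at most). In 5-FU+ICB tumors the difference of Csf3r from PBS was 0.24, and Csf3r was 1.41 lower than in ICB tumors, again without overlap (exact permutation p = 0.00794, the smallest that 5 against 5 tumors allow). These differences rest in part on 5-FU+ICB tumors 2 and 5. Without tumor 2 they were 0.44 and -1.21, without tumor 5 they were 0.54 and -1.11, and without both they were 0.91 and -0.74. As a ratio, Csf3r CPM divided by Ptprc CPM had a median of 0.0797 in PBS, 0.263 in ICB, 0.128 in 5-FU, 0.123 in 5-FU+ICB, 0.112 in Cisplatin and 0.201 in Cisplatin+ICB tumors. After Benjamini-Hochberg adjustment over 90 such tests 0 were under 0.05 (18 were before adjustment), and the lowest adjusted exact permutation p was 0.179.

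**Figure D3:**
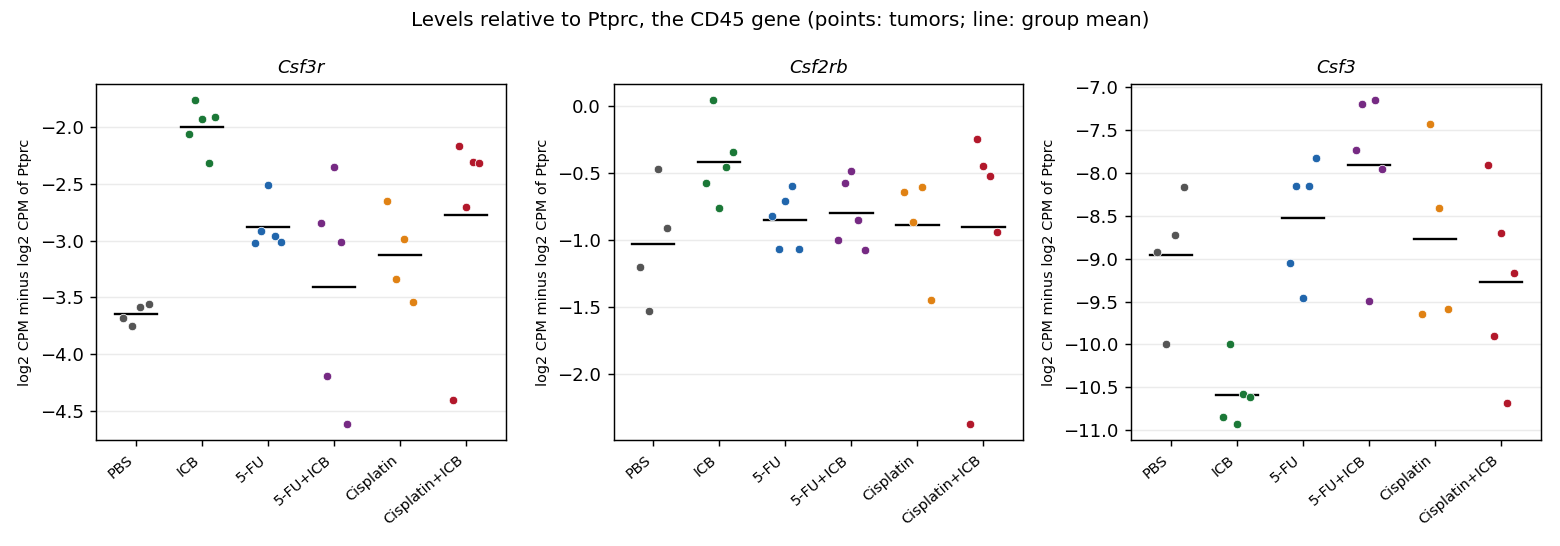
Log2 CPM minus log2 CPM of Ptprc (y axis) for Csf3r, Csf2rb and Csf3 in each of the 28 tumors, with a line for the group mean. Csf3r is higher in all ICB than in all PBS and all 5-FU+ICB tumors, and Csf3 is higher in all 5-FU+ICB than in all ICB tumors.

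Among the ligands, Csf2, which encodes GM-CSF (chr11:54247271-54249667, minus strand), was at or under 4.96 CPM in every tumor and rose with ICB. PBS tumors had 0.203, 0.542, 0.397 and 0.232 CPM (5 to 16 counts). ICB tumors had 1.23, 4.96, 1.07, 0.913 and 1.81 CPM, all above PBS, with tumor 2 far over the others. The log2 fold change was 2.56 (SE 0.58, adjusted p = 0.00279), and 1.91 without ICB tumor 2, still called. 5-FU+ICB tumors, at 2.72, 0.868, 1.62, 2.19 and 2.2 CPM, were also all above PBS (log2 fold change 2.48, SE 0.58, adjusted p = 0.00338). Relative to Ptprc, the differences from PBS were 0.15 with ICB (exact permutation p = 0.81) and 0.36 with 5-FU+ICB (exact permutation p = 0.365), and the groups overlapped. The chemotherapies alone gave no call, with 0.359 to 1.34 CPM in 5-FU and 0.152 to 0.414 CPM in Cisplatin tumors. In Cisplatin+ICB tumors Csf2 stood at 1.01, 3.12, 0.265, 2.38 and 0.867 CPM (log2 fold change 2.15, SE 0.68, adjusted p = 0.0653, not called). With every tumor kept it was called by DESeq2 (adjusted p = 0.013) and with all 6 groups joined (adjusted p = 0.0485). Tumor 3 was within the PBS range and the other 4 above it, and the gene was called in 3 of 18 fits with 1 tumor left out, those without ICB tumor 2 or Cisplatin+ICB tumor 1 (2.34, adjusted p = 0.0185) or 3.

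Csf3, which encodes G-CSF (chr11:98701263-98703629, plus strand), had its highest group mean in 5-FU+ICB tumors. Its counts were 3, 1, 3 and 8 in PBS, 3, 12, 4, 3 and 5 in ICB, 7, 12, 9, 9 and 31 in 5-FU and 57, 21, 10, 83 and 57 in 5-FU+ICB tumors. In CPM, 5-FU+ICB tumors had 2.12, 0.651, 0.405, 2.57 and 2.85, and no PBS or ICB tumor exceeded 0.342. All 5 tumors given both treatments were therefore above all 9 tumors of those 2 groups. The log2 fold change was 3.70 against PBS (SE 0.73, adjusted p = 0.00136) and 3.24 against ICB (SE 0.64, adjusted p = 0.0418). It was the only 1 of 9 members called against ICB, a comparison in which 0.229% of all genes, 41 of 17916, were called. Because the gene passed the filter on low counts only through groups where it is high, nothing is read from its calls in any comparison or fit, which are given as a description. The call against ICB was lost with every tumor kept when there was no filter (adjusted p = 0.0672), with the replicate number as a block (adjusted p = 0.118) and with the 2 groups alone (adjusted p = 0.191). With all 6 groups joined it was kept (adjusted p = 0.0209), as it was with DESeq2. Among fits with 1 tumor left out it was kept without PBS tumor 2, 5-FU tumor 3 or 5, or 5-FU+ICB tumor 2 or 3, and lost without any other single tumor (14 of 19 fits, adjusted p up to 0.134 and log2 fold change 2.99 to 3.67). Without 5-FU+ICB tumor 5, the one with almost no Msln, it was 2.99 (adjusted p = 0.0746), and against PBS it was 3.44 without that tumor. Relative to Ptprc, 5-FU+ICB exceeded PBS by 1.05 with overlap (exact permutation p = 0.127) and ICB by 2.69 without overlap. Against 5-FU alone the log2 fold change was 1.85 (SE 0.59, adjusted p = 0.161), and 5-FU against PBS gave 1.84 (SE 0.71, adjusted p = 0.0619). The latter was called by DESeq2 (adjusted p = 0.0358) and in 4 of 19 fits with 1 tumor left out, those without PBS tumor 4, 5-FU tumor 1 or 5-FU+ICB tumor 2 (1.84, adjusted p = 0.049) or 3. Of the matrices, the one with the cisplatin groups lost Csf3 to the filter on low counts and the one with the 5-FU groups did not. Both hold the same PBS and ICB tumors, so the gene was tested only because of the tumors given 5-FU. In the cisplatin groups, with 0.118 to 0.381 CPM in Cisplatin and 0.124 to 0.557 CPM in Cisplatin+ICB tumors, group means were compared by two-sided exact permutation tests. Cisplatin+ICB exceeded PBS by 0.186 CPM (exact permutation p = 0.0952, adjusted over 4 tests 0.317), and the adjusted p of the other 3 comparisons was 0.317 to 0.457.

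**Figure D4:**
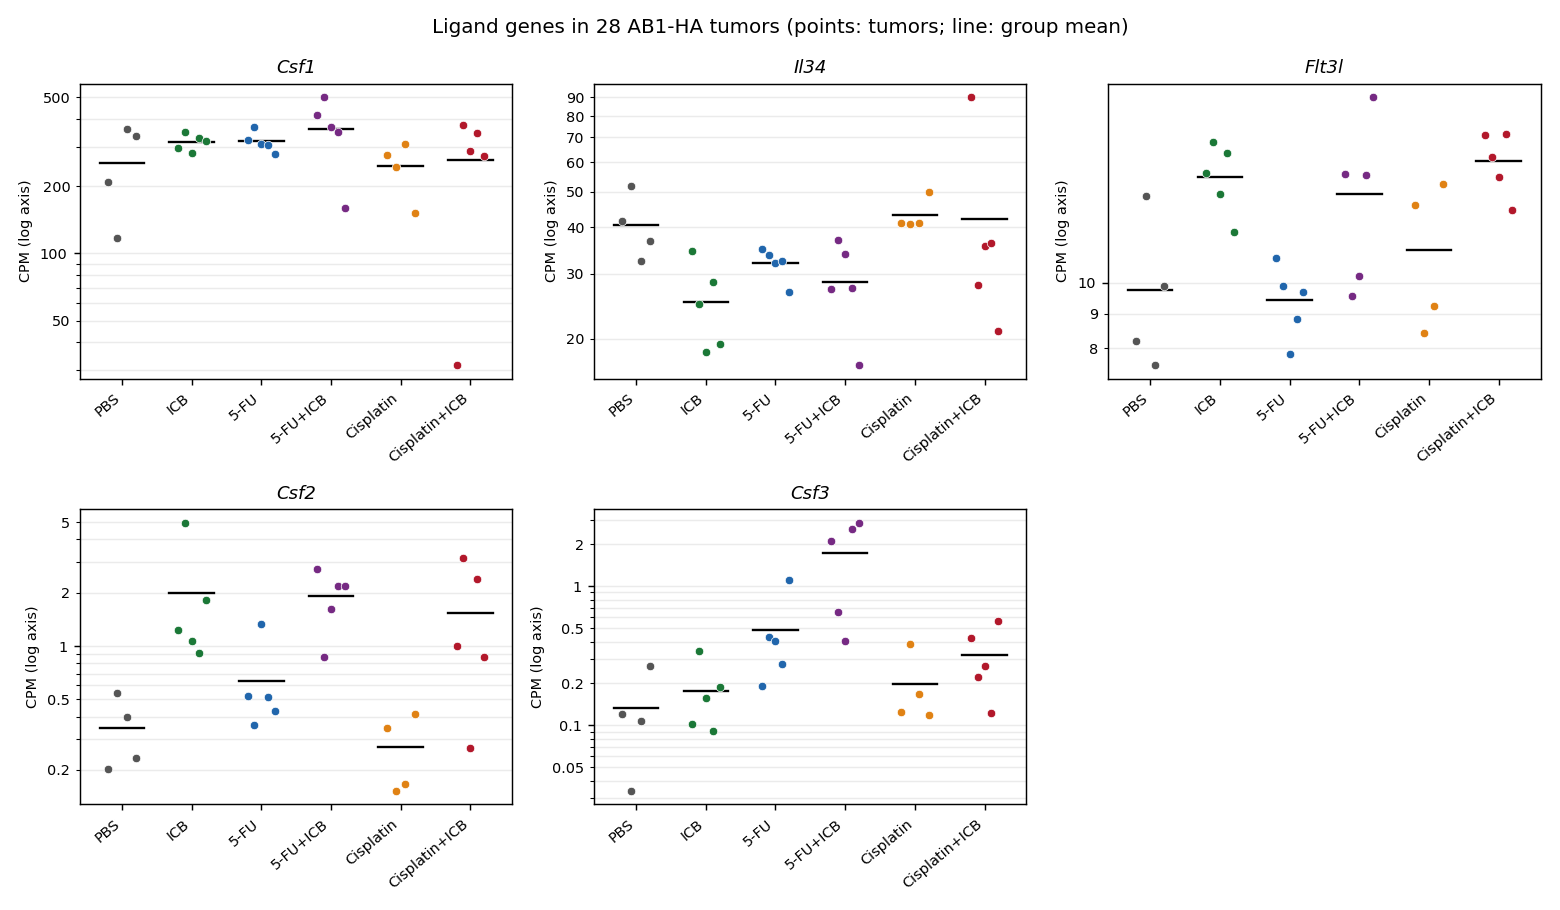
CPM (log axis) of the 5 ligand genes in each of the 28 tumors by treatment group, with points for tumors and a line for the group mean. Csf3 is highest in 5-FU+ICB tumors (0.405 to 2.85 CPM), and the Csf1 and Il34 panels show Cisplatin+ICB tumor 1 apart from its group.

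Flt3l, the gene of FLT3 ligand (chr7:45129788-45136432, minus strand), had small differences. ICB tumors had 14.5, 16.2, 13.6, 15.6 and 11.9 CPM and PBS tumors 8.19, 13.5, 7.55 and 9.89 CPM. Of the ICB tumors only tumor 5 lay within the PBS range. The log2 fold change of 0.57 (SE 0.22) was called at an adjusted p of 0.0490, and the call held in 5 of 19 fits with 1 tumor left out (adjusted p up to 0.144). It held without PBS tumor 2, ICB tumor 5 or 5-FU+ICB tumor 2, 3 or 5, and was lost without any other. Cisplatin+ICB tumors stood at 12.8 to 16.6 CPM (log2 fold change against PBS 0.65, SE 0.20, adjusted p = 0.0612), and the gene was called by DESeq2 (adjusted p = 0.0107), with its size factors (adjusted p = 0.0482) and without Cisplatin+ICB tumor 1 (adjusted p = 0.0265) or PBS tumor 2. 5-FU+ICB tumors ranged from 9.58 to 18.9 CPM (log2 fold change 0.49, SE 0.22, adjusted p = 0.0844), and there the gene was called without 5-FU+ICB tumor 2 (adjusted p = 0.0291) or PBS tumor 2, and by DESeq2. 5-FU tumors, at 7.83 to 10.9 CPM, were within the PBS range. Relative to Ptprc, Flt3l was 1.38 lower in ICB than in PBS tumors on the log2 scale, in place of higher (exact permutation p = 0.0159, adjusted 0.179).

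Il34 (chr8:110741829-110805924, minus strand) was the only member called lower in any comparison. It stood at 41.5, 51.9, 32.5 and 36.7 CPM in PBS and at 34.5, 24.8, 18.5, 28.4 and 19.3 CPM in ICB tumors. Of the ICB tumors, 4 were below all PBS tumors (log2 fold change -0.68, SE 0.22, adjusted p = 0.0200). The call was lost without PBS tumor 2, ICB tumor 3 or ICB tumor 5 (adjusted p up to 0.0890, log2 fold change as small as -0.51). With every tumor kept it was lost without a filter on low counts (adjusted p = 0.0675) and with all 6 groups in the model (adjusted p = 0.0718). 5-FU+ICB tumors, at 27.3, 36.9, 33.9, 27.4 and 17.0 CPM, gave -0.51 (SE 0.22, adjusted p = 0.0661, not called). That fold change was -0.60 and called without 5-FU+ICB tumor 2 (adjusted p = 0.0357), was called without PBS tumor 3 as well, and was -0.37 without 5-FU+ICB tumor 5 (adjusted p = 0.147). Cisplatin tumors were close to one another at 41.0, 40.8, 41.2 and 49.8 CPM. Among Cisplatin+ICB tumors, tumor 1 had 90.0 CPM, the highest value of all 28, and the other 4 had 21.0 to 36.2 CPM.

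Csf1, the M-CSF gene (chr3:107741048-107760469, minus strand), was called in 0 of 12 comparisons and had an unadjusted p under 0.05 in 0 of them in edgeR's test. Its log2 fold changes ranged from -0.26 to 0.54, and the lowest adjusted p was 0.112. Without 5-FU+ICB tumor 5, the log2 fold change of 5-FU+ICB against PBS was 0.72 (SE 0.22, adjusted p = 0.0174) and Csf1 was called. PBS tumors had 208, 117, 360 and 334 CPM, a spread that covered nearly all other values. Outside it, 5-FU tumor 2 had 369 CPM, Cisplatin+ICB tumor 2 had 377 CPM, and 5-FU+ICB tumors 1 to 3 had 417, 502 and 368 CPM. Cisplatin+ICB tumor 1, at 31.6 CPM, was far below every other tumor.

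Fewer members were called between a combination and a monotherapy than between that combination and PBS. For 5-FU+ICB against 5-FU, 0 of 9 members were called where 0.0112% of all genes were. An unadjusted p under 0.05 was found for 6, or 5 of 8 without Csf3, and for 16.6% of all genes. DESeq2 called 1 (Csf2), with 1.52% of all genes called. Csf2 had a log2 fold change of 1.63 (SE 0.51, adjusted p = 0.160), Csf2rb 1.04 (SE 0.38) and Csf3r 0.62 (SE 0.50) in this comparison. Leaving Csf3 aside, edgeR called 5 of 8 members without 5-FU+ICB tumor 2, namely Csf2, Flt3l, Csf2ra, Csf2rb and Csf2rb2, all higher in the combination, at log2 fold changes from 0.65 (Flt3l) to 1.82 (Csf2) and adjusted p up to 0.0485, in a fit that called 10.9% of all genes. Csf3, listed for description only, was at 2.07 there. Without 5-FU tumor 3 it called 3, with 3.58% of all genes called. For 5-FU+ICB against ICB the receptors had negative fold changes, from -0.11 (Csf2ra) to -1.14 (Csf3r, SE 0.50, adjusted p = 0.410), and none was called. For Cisplatin+ICB against ICB, 0 of 8 members were called (0% of all genes), with 2 unadjusted p under 0.05 (15.9% of all genes) and 0 calls by DESeq2. Csf3r was at -1.06 (SE 0.50) there and Il34 at 0.75 (SE 0.31), or 0.29 without Cisplatin+ICB tumor 1. For Cisplatin+ICB against Cisplatin, 0 of 8 were called (0% of all genes), and 6 had an unadjusted p under 0.05 (14.2% of all genes had). DESeq2 called 2 (Csf2 and Csf3r), with 2.21% of all genes called. Without Cisplatin+ICB tumor 1 edgeR called 5 of them, Csf2 and the 4 receptor genes, with log2 fold changes from 1.48 (Csf2ra) to 2.65 (Csf2), in a fit that called 11.9% of all genes. Without Cisplatin+ICB tumor 3 it called 1 (Csf2), with 3.04% of all genes called.

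Between Cisplatin and PBS 0 of 8 members were called, with 0 unadjusted p under 0.05 (1.78% of all genes) and 0 calls by DESeq2, which does not show that their levels were alike. Its log2 fold changes ran from -0.33 (Csf2, SE 0.72) to 0.91 (Csf3r, SE 0.56). In 5-FU against Cisplatin tumors, 0 of 9 members were called, where 0.362% of all genes were, and DESeq2 called 0. The only unadjusted p under 0.05 was that of Csf2rb2 (log2 fold change 1.38, SE 0.54, adjusted p = 0.222).

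The interaction asks whether a chemotherapy changed a gene differently with ICB than without it. For 5-FU, 0 of 9 members were called, against 0.0893% of all genes, 4 had an unadjusted p under 0.05, as 23.9% of all genes had, and these were the 4 receptors. Their interaction terms were all negative, at -3.10 for Csf3r (SE 0.75, adjusted p = 0.0665), -1.82 for Csf2rb2 (SE 0.60), -1.63 for Csf2rb (SE 0.55) and -1.26 for Csf2ra (SE 0.52). Group means of Csf3r show the pattern, with 7.27 ± 0.831 CPM in PBS, 27.9 ± 18.6 in 5-FU, 94.2 ± 31.2 in ICB and 42.5 ± 25.6 in 5-FU+ICB tumors. DESeq2 called 3 of the interactions (Csf3r, Csf2rb2 and Csf2rb), in a fit that called 4.34% of all genes. The interaction of Csf3r was called by edgeR in 3 of 19 fits with 1 tumor left out. Those were the fits without PBS tumor 3, PBS tumor 4 or 5-FU+ICB tumor 4, which called 9.27%, 5.56% and 5.35% of all genes. For cisplatin, 0 of 8 were called (0% of all genes; 0 by DESeq2), and 1 had an unadjusted p under 0.05 (Csf3r, -1.97, SE 0.75, adjusted p = 0.564).

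Within groups, the receptor genes deviated together from one tumor to the next. After the mean of each group was subtracted from log2 CPM, Pearson's r over the 28 tumors was 0.99 for Csf2rb with Csf2rb2, which share reads, 0.96 for Csf2ra with Csf2rb and 0.91 for Csf2rb with Csf3r. Csf3 and its receptor gene showed an r of 0.11, and Csf2 had 0.50 with Csf2ra and 0.55 with Csf2rb. Il34 was opposed to the receptors, from -0.58 (Csf3r) to -0.76 (Csf2rb2). Cisplatin+ICB tumor 1 bears on these values. Over the other 27 tumors r was -0.31 for Il34 with Csf3r, -0.54 for Il34 with Csf2rb2, 0.70 for Csf2 with Csf2rb, 0.23 for Csf3 with Csf3r and 0.83 to 0.98 between receptor genes. All points share the library's depth and its leukocyte share, and these values are descriptions without a test. Of 14413 genes with a mean of at least 1 CPM, those most like Csf3r were Myo1f (r = 0.97), Rassf4 (0.96) and Aoah (0.96). For Csf2ra they were Sema4a (0.98), Nod2 (0.97) and Mmp25 (0.97), and for Csf2rb, after Csf2rb2, they were Sema4a and Pfkfb3 (both 0.98). Csf2rb2 had Sema4a and Rasgrp1 (both 0.98) after Csf2rb. Csf1 was most like Capn5, Smurf1 and Furin (all 0.99, and 0.95 to 0.96 without Cisplatin+ICB tumor 1). Il34 was most like 2810433D01Rik, Nthl1 and E230025N22Rik (0.94 to 0.95), Csf2 like Piwil2, Ass1 and Mmp12 (0.83 to 0.85), and Flt3l like Ccdc28a, Haao and A630001G21Rik (0.76 to 0.79). These rankings moved without Cisplatin+ICB tumor 1. Over the other 27 tumors the leading genes were Mmp25 (0.96), Sema4a (0.95) and H2-Q4 (0.94) for Csf2ra, Itgax and Hvcn1 (both 0.97) after Csf2rb2 for Csf2rb, and Myo1f (0.96), Lpcat2 and Unc93b1 (both 0.95) for Csf3r, and those of Il34 stood at 0.90 to 0.91.

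**Figure D5:**
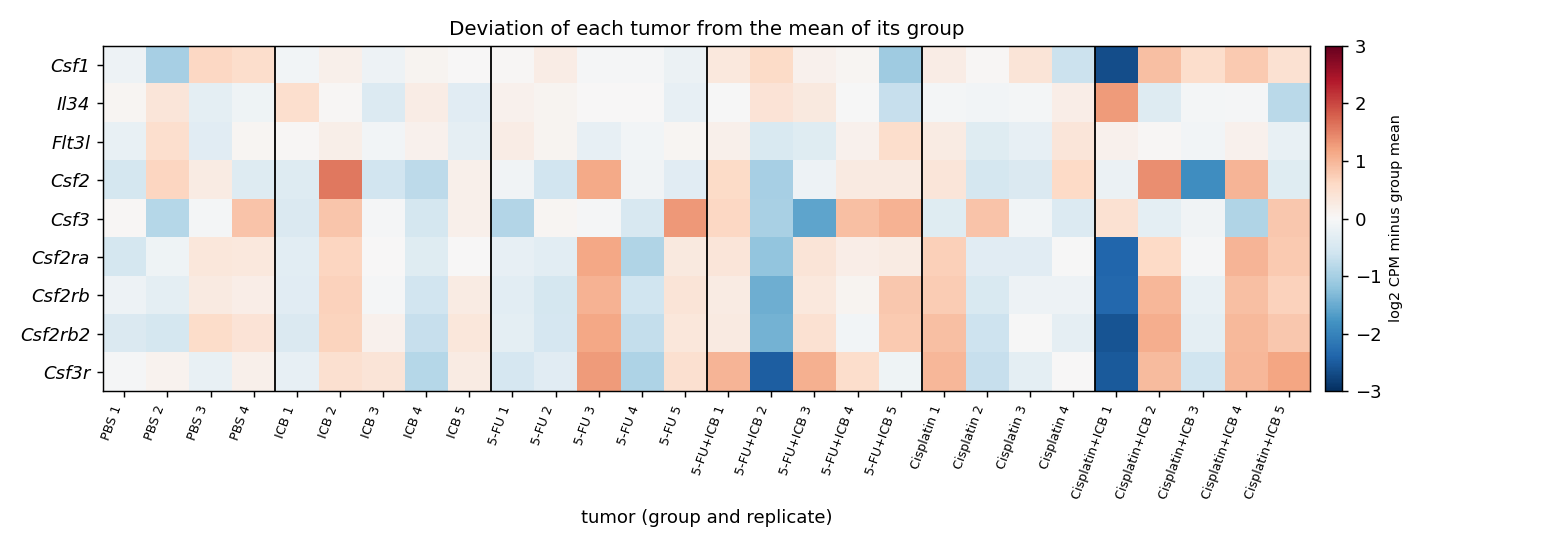
Log2 CPM of each member minus its group mean (color) in each of the 28 tumors, ordered by group. The 4 receptor rows share their color in most tumors, 5-FU+ICB tumor 2 and Cisplatin+ICB tumor 1 are the lowest of their groups in all 4, and Il34 is high where Csf1 and the receptors are low in Cisplatin+ICB tumor 1.

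Genes around these receptors were followed in 4 lists. Their counts stand against the 37.8%, 23%, 40.7% and 6.1% of all genes called in either direction with ICB, 5-FU, 5-FU+ICB and Cisplatin+ICB. Of 12 signal transducers, the kinases, STAT factors and adaptors that work under the receptors, 9 were called higher with ICB, 2 with 5-FU, 10 with 5-FU+ICB (and 1 lower, Shc1) and 0 with Cisplatin or Cisplatin+ICB. Among them with ICB were Jak2, the kinase bound to the common beta chain (log2 fold change 1.42, SE 0.21), and the kinase gene Lyn (1.38, SE 0.34). Of 9 genes induced by STAT5 or STAT3, 8 were called higher with ICB, 4 with 5-FU, 7 with 5-FU+ICB and 3 with Cisplatin+ICB. Cish, a feedback inhibitor of cytokine receptors, led the list with ICB (2.52, SE 0.41), 5-FU+ICB (2.48, SE 0.41) and Cisplatin+ICB (1.83, SE 0.47). With 5-FU it was Socs3, another such inhibitor (1.5, SE 0.35). Of 11 myeloid transcription factors, 10 were called higher with ICB and with 5-FU+ICB, 2 with 5-FU (Klf4, 2.64, SE 0.53, and Cebpa, 1.60, SE 0.58) and 5 with Cisplatin+ICB. Gfi1, a factor of granulocyte development, had 2.58 (SE 0.48) with ICB and 2.68 (SE 0.49) with 5-FU+ICB, and Irf8, which directs monocyte and dendritic cell fate, had 2.31 (SE 0.46) and 2.17 (SE 0.45). Median log2 fold changes with ICB were 1.02, 1.41 and 1.85 for these 3 lists, against -0.03 over all tested genes. With 5-FU, the 2 of 12 transducers and 2 of 11 transcription factors called were no larger a share than that of all genes called in either direction. Those list genes were all called higher, and of all 17916 genes tested 1788 were called higher.

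The fourth list held 12 relatives of the members, other receptors and ligands of blood cell growth, of which 8 could be tested. With ICB 4 of the 8 were called higher and 1 lower, with 5-FU 3 and 1, with 5-FU+ICB 4 and 1, and with Cisplatin+ICB 0 and 0. Their median log2 fold change was 0.625, 0.42, 0.79 and 0.49, against -0.03, -0.01, -0.04 and 0.03 over all tested genes. Kit, the stem cell factor receptor of mast cells and progenitors, had log2 fold changes of 2.01 (SE 0.42), 1.51 (SE 0.41) and 2.26 (SE 0.43), and Il5ra, the IL-5 receptor chain that pairs with Csf2rb, had 1.91, 2.05 and 2.34 at mean levels under 1 CPM. Il3ra, the IL-3 receptor chain, had 1.57 (SE 0.43) with ICB and 1.81 (SE 0.44) with 5-FU+ICB. The one gene called lower was Epor, the erythropoietin receptor, at -1.16 (SE 0.29) with ICB, -0.89 (SE 0.28) with 5-FU and -1.54 (SE 0.29) with 5-FU+ICB. Cisplatin alone gave 0 calls in the 4 lists, and the most abundant transducers, Jak1 and Stat3, had -0.01 (SE 0.26) and 0.11 (SE 0.42) there. In the comparisons of combinations with monotherapies, of 5-FU with Cisplatin and of the interactions, 0 genes of the 4 lists were called.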

How the data were processed

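Bulk RNAseq of 28 tumors was analysed as deposited. Per the labels and the study's methods, 100-base single-end reads were handled with bcl2fastq 2.20.0.422, assigned to GRCm38/mm10 transcripts with kallisto 0.46.0 and summarised with tximport. The authors deposited estimated counts per gene, without normalization, in 2 matrices, and the PBS and ICB tumors, present in both, had identical values. Of the values, 23.7% were not whole, and all were rounded for the tests. Library totals had a median of 28797552.

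R 4.3.3 and edgeR 4.0.16 were used, with filterByExpr, TMM, glmQLFit and glmQLFTest on the 4 groups of a matrix (17916 and 17819 genes) or on all 6 groups for 5-FU against Cisplatin (18521). p-values were adjusted by Benjamini-Hochberg over all genes tested, and a call needed an adjusted p under 0.05 and a log2 fold change over 0.5 in size, as in the study's methods. The study used DESeq2, which here (1.42.0) was an alternative. An interaction was the chemotherapy's effect with ICB minus that without. Levels relative to Ptprc (prior count 2) and members that the filter removed were compared by two-sided exact permutation tests (scipy 1.17.1). Both tools were also run on simulated counts in which 200 genes had a log2 change of 2. For 5-FU against PBS, 6.29% of edgeR calls and 24.2% of DESeq2 calls were false. For Cisplatin against PBS these shares were 1.77% and 21.9%. DESeq2 recovered more of the changed genes, 81.5% against 74.5% by edgeR and, for Cisplatin, 71.5% against 55.5%. Whether these rates hold for the tumors, where far more genes were called in some comparisons, was not tested.

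Gene positions came from GENCODE M21 and promoters from RefSeq. Named were all 9 members and, of each list, at most the 3 called genes with the largest fold change, of which 1 is not reported here. For each member with a mean of at least 1 CPM the 3 genes of highest correlation were named, and Shc1 and a few marker genes were named after their values were seen. Members and lists were chosen with earlier results of these data known. No batch is given in the labels, and replicate tumors came from different mice. The alternatives were DESeq2, its size factors, no filter, a replicate block, other sets of groups in the model, no fold change threshold, each tumor left out in turn, plain library sizes, a prior count of 0.5 and a mean of 3 leukocyte genes in place of Ptprc. Correlations without Cisplatin+ICB tumor 1 and levels relative to Ptprc without 5-FU+ICB tumors 2 and 5 were added after seeing the data.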

Additional observations from a re-analysis of the deposited data

Results flagged for a closer look

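Of 54 sets of values (9 members in 6 groups), 6 had a tumor whose distance from the nearest other was large relative to the range of its group by Dixon's 95% criterion, which flags about 1 in 20 groups by chance. Il34 stood at 49.8 CPM in Cisplatin tumor 4 and at 90.0 CPM in Cisplatin+ICB tumor 1, each above the rest of its group. Csf2 stood at 4.96 CPM in ICB tumor 2 and at 1.34 CPM in 5-FU tumor 3, again above the rest. Csf3 was at 1.11 CPM in 5-FU tumor 5, above the other 5-FU tumors. Csf2ra was at 30.0 CPM in 5-FU+ICB tumor 2, below the other tumors given 5-FU+ICB. Causes of these values were not tested.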

How the results depend on the processing

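Over the alternatives that kept every tumor, 297 of 329 values stayed on their side of the threshold, 18 lost and 14 gained the call, and 0 turned direction; with 1 tumor left out this held for 815 of 906. The numbers of members called that moved by more than 1.5 times, or from or to 0, are given first. With DESeq2 they were 1 for 5-FU+ICB against 5-FU (1.52% of all genes called), 3 for the interaction of 5-FU (4.34%), 6 for Cisplatin+ICB against PBS (6.09%) and 2 for Cisplatin+ICB against Cisplatin (2.21%). Without a filter on low counts they were 0 for 5-FU+ICB against ICB (0.0478%) and 1 for Cisplatin+ICB against PBS (1.76%). In a model of the 2 groups compared alone they were 0 for 5-FU+ICB against ICB and 0 for Cisplatin+ICB against PBS (0% of all genes in both), and with all 6 groups joined 0 for 5-FU against PBS (4.45%). Smaller moves were 3 for Cisplatin+ICB against PBS with all 6 groups joined (4.36% of all genes) or DESeq2's size factors (6.23%). They were 5 for 5-FU (13.7%) and 7 for 5-FU+ICB against PBS (22.3%) with DESeq2, each with Csf3 among them. For ICB against PBS 6 were called, both without a filter (16.1%) and with all 6 groups joined (28.0%). With each tumor left out in turn the range was 0 to 5 for 5-FU against PBS, 0 to 6 for 5-FU+ICB against 5-FU, 0 to 1 for 5-FU+ICB against ICB, 0 to 6 for Cisplatin+ICB against PBS, 0 to 5 for Cisplatin+ICB against Cisplatin, 0 to 1 for the interaction of 5-FU, 5 to 7 for ICB and 6 to 8 for 5-FU+ICB against PBS. The share of all genes called moved in the same fits, in the same order from 7.87% to 27%, 0% to 10.9%, 0.00562% to 0.468%, 0% to 35.3%, 0% to 11.9%, 0% to 9.27%, 28.4% to 41.6% and 30.6% to 48.8%. The numbers of members called include Csf3 wherever it was called. It was 1 of the 6 for 5-FU+ICB against 5-FU and the only member called for 5-FU+ICB against ICB. Nothing is read from its calls, since it passed the filter only through groups where it is high. The cause of the moves in these numbers was not tested.

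With the replicate number as a block, 1 member was called for 5-FU (18.6% of all genes), 0 for 5-FU+ICB against ICB (0.0447%), 0 for Cisplatin+ICB against PBS (0.533%) and 6 each for ICB (33.7%) and 5-FU+ICB against PBS (35.8%). The median correlation of same-numbered tumors' deviations was -0.02 (66 pairs, -0.63 to 0.67), against 0.01 for other pairs. With so wide a range this cannot exclude a shared cage, day or batch, which the labels do not give. Relative to Ptprc the log2 fold change of Flt3l with ICB turned from 0.57 to -1.38, and the other 19 called fold changes had the same sign. Several of these were within the spread of the PBS tumors, such as 0.12, 0.04 and 0.03 for Csf2ra with ICB, 5-FU and 5-FU+ICB (PBS SD 0.53), so their sign shows no direction. None had an adjusted p under 0.05 there, but the smallest p of that test is 0.0159 for 5 against 4 tumors before adjustment over 90 tests, so this says little about stability. Depth limits Csf3 and Csf2, whose PBS tumors held 1 to 16 counts.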
